A study of Mus musculus with 36 samples.

Results

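The unfolded protein response and the integrated stress response were followed through 10 genes, Hspa5, Hsp90b1, Dnajb9, Herpud1, Xbp1, Atf4, Ddit3, Atf3, Trib3 and Asns, chosen by name from the 49315 genes of a mouse liver expression table. All 10 passed the filter on low values, 1 TPM or more in 4 or more livers, and their levels were described in 36 livers. The response was not uniform. On the MASH diet with vehicle, the stress-induced transcription factor Atf3, the asparagine synthetase Asns and Ddit3 were higher in livers with 1 or only mutant LXRalpha alleles than in control livers. In the same comparison Herpud1 was lower in homozygous mutants. There the chaperones Hspa5 and Hsp90b1 and the transcription factor Atf4 were not called higher once libraries were set to a common typical gene. After that step Hsp90b1 and Xbp1 were called lower in homozygous mutants, while before it Hsp90b1 was called higher and Xbp1 was not called. These calls after the step were not checked by leaving out single libraries. On chow, Atf3 and Asns were higher and Herpud1 was lower in homozygous mutants, and no difference was called in heterozygotes.

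All livers came from male mice aged 11 to 12 weeks, and LXRalpha, a nuclear receptor for oxidised cholesterol, had been edited with CRISPR so that tryptophan 441 was replaced by phenylalanine. Homozygous controls (W/W) kept the tryptophan, heterozygotes (W/F) carried 1 mutant allele and homozygous mutants (F/F) carried only mutant alleles. The labels limit the edited allele to no cell type, and RNA came from whole liver. Each genotype was studied on normal chow, on a high-fat, high-cholesterol diet that promotes MASH (metabolic dysfunction-associated steatohepatitis) for 4 weeks with vehicle, and on the same diet with the LXR agonist T0901317 at 10 mg/kg daily by oral gavage over the last 2 weeks. The 9 groups held 4 mice each. The chow mice were an independent cohort, and the labels give no vehicle for them. Diet, cohort and vehicle therefore cannot be told apart. Replicates are the numbered samples of the labels. Each SE and p-value rests on a spread between these samples that all 9 groups share for a gene, moderated across genes. It is not the spread of the compared groups alone.

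Proteins that misfold in the endoplasmic reticulum (ER) activate 3 sensors. PERK phosphorylates the initiation factor eIF2alpha, which lowers general translation while the mRNA of ATF4 is translated more, and ATF4 induces CHOP (the product of Ddit3), ATF3, TRIB3 and ASNS. Other eIF2alpha kinases, which sense amino acid shortage, haem or double-stranded RNA, feed the same branch, known as the integrated stress response. IRE1 splices the Xbp1 mRNA, and ATF6 is cleaved in the Golgi, and both yield factors that induce chaperones such as BiP (Hspa5) and components of ER-associated degradation such as HERPUD1. In liver these pathways are known for the hepatocyte's load of secreted proteins and for steatosis. Gene-level TPM does not separate spliced from unspliced Xbp1 mRNA, and does not report the translation of Atf4 or the cleavage of ATF6.

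TPM, a transcript abundance, is a share of each library's mRNA corrected for gene length. Recovered depths lay between 18.06 M and 35.8 M reads (median 23.9 M). The median gene moved between groups by up to 0.70 on the log2 scale (F/F minus W/W on vehicle), so every difference is given with TPM as deposited and after each library was divided by a factor that sets the typical gene equal (rescaled TPM). That factor was 0.693 to 0.852 in W/W livers on vehicle and 1.425 to 1.478 in F/F livers on vehicle. The summed TPM of 10 hepatocyte markers was 100318 to 127391 in W/W, 72438 to 81891 in W/F and 48883 to 51885 in F/F, all on vehicle. The summed TPM of 12 macrophage markers was 302 to 524 in W/W, 4092 to 5220 in W/F and 4664 to 5930 in F/F on vehicle, and 208 to 299, 142 to 286 and 721 to 1149 on chow. With T0901317 it was 303 to 605, 268 to 1706 and 2051 to 3249 in the same order of genotypes. No hepatocyte or macrophage marker was at 0 in all 4 livers of a group. In whole tissue, fewer cells of a type and less RNA per cell cannot be told apart, and the part of these cell types in the results on the 10 genes was not tested.

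Differences were called at an adjusted p under 0.05 (limma, Benjamini-Hochberg over 16638 genes), and log2 fold changes are differences of log2(TPM + 1), which understate the change of low genes. In F/F minus W/W on vehicle, 9 of the 10 genes were called as deposited, 8 of them higher, when 76.5% of all genes were called. After rescaling 7 were called, 4 higher and 3 lower, when 59.1% of all genes were called, 31.0% higher and 28.1% lower. The 5 genes called in the same direction in both scalings were Atf3, Ddit3, Asns and Trib3, all higher, and Herpud1, lower. In W/F minus W/W on vehicle, 7 were called as deposited, all higher (background 68.5%), and 5 after rescaling, 3 higher and 2 lower (background 53.1%, with 27.6% higher and 25.5% lower). Atf3, Ddit3 and Asns were higher in both scalings. The counts alone were near the background or not far above it.

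On chow, none of the 10 genes was called between W/F and W/W in either scaling, when 0.487% of genes were called as deposited and 0.601% after rescaling. At an unadjusted p under 0.05, limma gave 1 gene in each scaling, Asns, whose log2 difference was 1.58 ± 0.51 (SE) as deposited and 1.58 after rescaling (adjusted p = 0.353 and 0.328). In F/F minus W/W on chow, 4 were called as deposited (background 46.7%) and 5 after rescaling (background 29.9%, with 15.9% higher and 14.0% lower). Atf3 and Asns were higher and Herpud1 was lower in both scalings. With T0901317, 2 genes, Xbp1 and Asns, differed between W/F and W/W in each scaling (backgrounds 9.88% and 13.4%), and 7 as deposited and 4 after rescaling differed between F/F and W/W (backgrounds 63.2% and 46.9%). Those 4 were Atf3, Ddit3, Trib3 and Asns, all higher in both scalings.

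Between F/F and W/F, 3 genes were called on chow as deposited and 5 after rescaling (backgrounds 41.4% and 31.2%). On vehicle 1 gene was called as deposited, Ddit3, and none after rescaling (backgrounds 21.3% and 10.6%), when an unadjusted p under 0.05 was reached by 2, Ddit3 and Herpud1. With T0901317, 5 were called in each scaling (backgrounds 62.6% and 40.3%), with Atf3, Ddit3 and Trib3 higher in both.

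**Figure D1:**
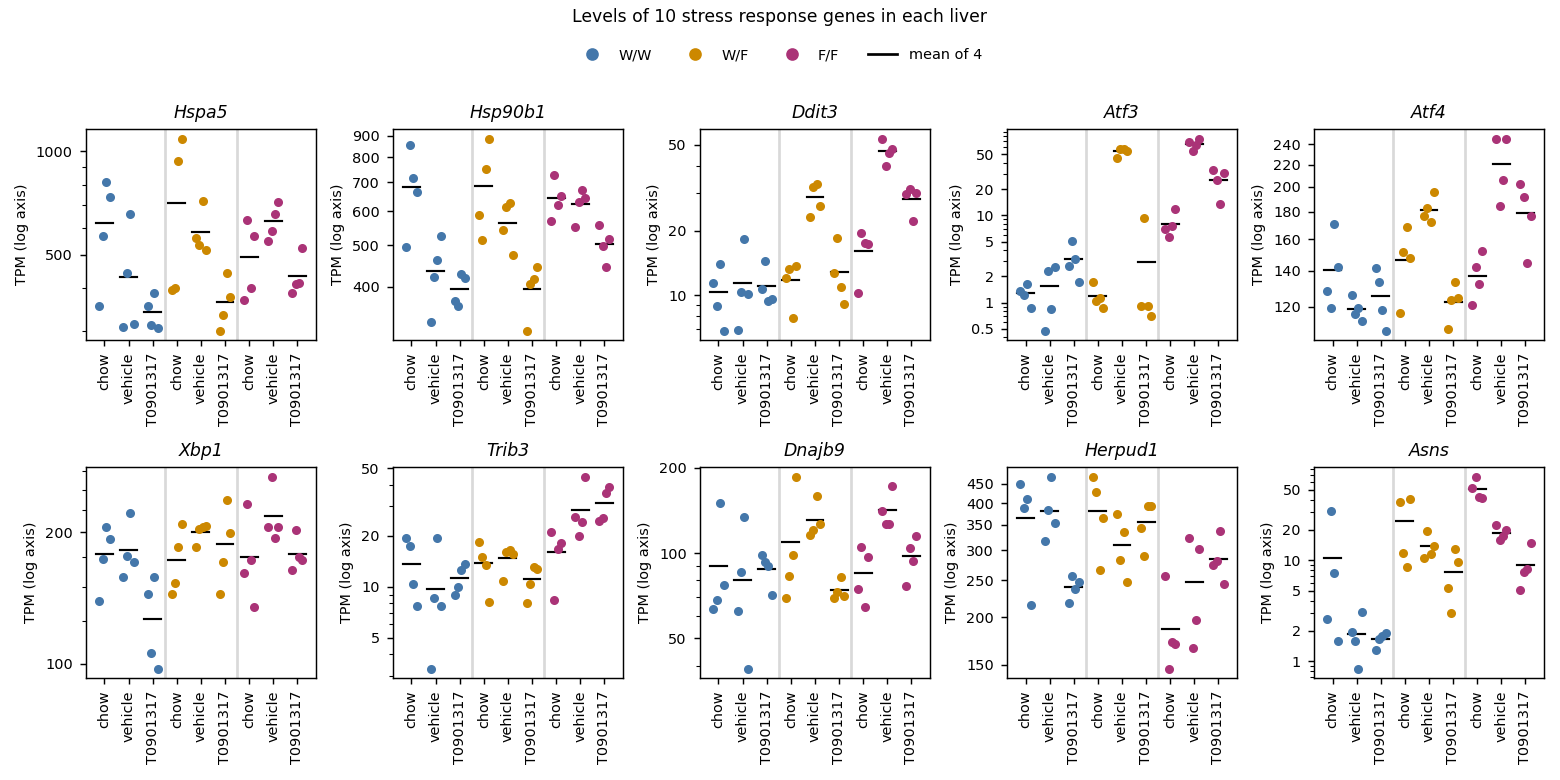
TPM as deposited (log axis) of each of the 10 genes in every liver, by genotype (colour) and treatment, with the mean of 4 mice as a bar. Atf3 sits between 45.7 and 75.3 TPM in the W/F and F/F livers on vehicle and at or below 2.55 TPM in W/W livers on vehicle.

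Atf3 encodes a basic leucine zipper repressor induced by ATF4, by cytokines and by many other signals (ENSMUSG00000026628, GRCm38 chr1:191170296-191218039, minus strand). In W/W livers on vehicle its 4 levels were 0.479, 2.30, 0.842 and 2.55 TPM. In W/F livers on vehicle they were 45.7, 56.8, 58.0 and 54.6 TPM. In F/F livers on vehicle they were 69.1, 55.1, 64.1 and 75.3 TPM. The mutant and control livers did not overlap, and the W/F and F/F livers did. The excess over W/W was 4.52 ± 0.37 (SE) on the log2 scale for W/F (adjusted p = 1.85e-11). For F/F it was 4.81 ± 0.37 (adjusted p = 1.63e-12). After rescaling the differences were 4.02 and 4.11, and F/F minus W/F was 0.08 with a 95% interval of -0.66 to 0.83 and an adjusted p of 0.924.

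On chow, F/F was already higher, with 6.98, 5.68, 7.45 and 11.9 TPM, against 1.35, 1.22, 1.65 and 0.879 TPM in W/W. W/F livers had 1.73, 1.04, 1.13 and 0.866 TPM. No F/F liver on chow overlapped the others. The difference from W/W was 1.95 ± 0.37 as deposited (adjusted p = 0.000126) and 1.67 after rescaling (adjusted p = 0.000714). F/F livers were thus called higher than W/W livers on chow and on vehicle, and W/F livers on vehicle. The diet response of W/F was larger than that of W/W by 4.58 ± 0.53 on the log2 scale (adjusted p = 5.09e-08; 4.10 after rescaling). The diet response of F/F was larger than that of W/W by 2.86 ± 0.53 (adjusted p = 0.000106; 2.44 after rescaling).

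T0901317 lowered Atf3 in both mutant genotypes. In W/F livers the 4 levels were 0.904, 9.25, 0.905 and 0.706 TPM, and all but replicate 2 lay within the range of W/W livers on vehicle. The change against vehicle was -4.27 ± 0.37 (adjusted p = 1.47e-10), and -3.80 after rescaling. In F/F livers the levels were 33.0, 25.2, 13.5 and 30.9 TPM, all below the F/F livers on vehicle and above every W/W liver. The change was -1.39 ± 0.37 (adjusted p = 0.00569), and -1.12 after rescaling (adjusted p = 0.0326), a rescaled call that was lost without F/F T0901317 replicate 2 or 3 or F/F vehicle replicate 1, 3 or 4 (adjusted p 0.0586 to 0.155).

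In W/W livers T0901317 gave 2.64, 5.12, 3.12 and 1.72 TPM, and the change of 0.74 ± 0.37 was not called (adjusted p = 0.238). The T0901317 response of W/F differed from that of W/W by -5.01 ± 0.53 (adjusted p = 9.05e-09; -4.56 after rescaling), and that of F/F by -2.13 ± 0.53 (adjusted p = 0.00362; -1.88 after rescaling). The macrophage marker sum moved the same way: the W/F T0901317 liver with the high Atf3 level also had the highest sum of its group, 1706 TPM against 268.1 to 391.4 TPM in the others, and its part in the Atf3 level was not tested.

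Ddit3 encodes CHOP, the ATF4-induced factor linked to cell death under ER stress (ENSMUSG00000025408, GRCm38 chr10:127290774-127296288, plus strand). Of its exon bases, 10.9% overlap other annotated genes. These are another entry named Ddit3 on the same strand, and Gm4189 and Mars on the opposite strand. The annotation and strand setting of the counting are not given in the sources used here. The level of Ddit3 is uncertain for these reasons, by an amount that the share of bases does not give. In W/W livers on vehicle it was 6.93, 10.3, 18.3 and 10.2 TPM. In W/F livers on vehicle it was 23.2, 32.0, 32.9 and 26.0 TPM, and in F/F livers on vehicle 53.4, 39.7, 45.8 and 48.0 TPM. The 3 genotypes formed 3 ranges that did not overlap. The difference from W/W was 1.31 ± 0.23 in W/F (adjusted p = 1.31e-05; 0.69 after rescaling, adjusted p = 0.0134). It was 2.01 ± 0.23 in F/F (adjusted p = 5.56e-09; 1.18 after rescaling, adjusted p = 5.55e-05). The rescaled W/F call was lost without W/W vehicle replicate 1 (0.55, adjusted p = 0.0638).

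The step from W/F to F/F, 0.70 ± 0.23, was called as deposited (adjusted p = 0.0313) but not after rescaling (0.50, adjusted p = 0.186), and the deposited call was lost without F/F vehicle replicate 1, 3 or 4 or W/F vehicle replicate 1 or 4 (adjusted p 0.0538 to 0.0881) and with a pseudocount of 0.1 TPM (adjusted p = 0.0509). On chow the range of Ddit3 was 6.88 to 14.1 TPM for W/W, 7.85 to 13.7 TPM for W/F and 10.2 to 19.5 TPM for F/F. These ranges overlapped, and the F/F excess of 0.60 ± 0.23 (adjusted p = 0.035) was not called after rescaling (0.25, adjusted p = 0.463) or, as deposited, without F/F chow replicate 2, 3 or 4 or W/W chow replicate 2 or 4 (adjusted p 0.0809 to 0.144), with no filter (adjusted p = 0.0682) or with only the libraries compared (adjusted p = 0.0879). On the MASH diet with vehicle Ddit3 was higher than on chow in W/F, by 1.23 ± 0.23 (adjusted p = 4.08e-05) and 0.75 after rescaling. In F/F it was higher by 1.51 ± 0.23 (adjusted p = 2.94e-06) and 1.16 after rescaling. The difference in W/W was 0.10 ± 0.23 (adjusted p = 0.861).

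With T0901317 the range of Ddit3 was 9.42 to 14.5 TPM for W/W, 9.10 to 18.5 TPM for W/F and 22.2 to 31.0 TPM for F/F. The fall in W/F was -1.12 ± 0.23 (adjusted p = 0.00011), and -0.55 after rescaling (adjusted p = 0.0484), a rescaled call lost without W/F T0901317 replicate 3 or 4 or W/F vehicle replicate 2, 3 or 4 (adjusted p 0.0769 to 0.189). F/F livers on T0901317 did not overlap W/W livers on T0901317, with a difference of 1.28 ± 0.23 (adjusted p = 2.68e-05; 0.78 after rescaling, adjusted p = 0.00627). F/F minus W/F was 1.11 ± 0.23 (adjusted p = 0.000181; 0.60 after rescaling, adjusted p = 0.0399), the rescaled call being lost without F/F T0901317 replicate 1, 2 or 4 or W/F T0901317 replicate 3 or 4 (adjusted p 0.0666 to 0.165).

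Trib3 encodes a pseudokinase induced by ATF4 and CHOP that restrains AKT and ATF4 (ENSMUSG00000032715, GRCm38 chr2:152337422-152344032, minus strand). It was 3.30, 8.57, 19.4 and 7.67 TPM in W/W livers on vehicle and 25.6, 19.8, 24.0 and 44.5 TPM in F/F livers on vehicle. As deposited the highest W/W liver lay just below the lowest F/F liver. After rescaling the ranges overlapped, at 4.77 to 24.2 in W/W and 13.4 to 30.3 in F/F. The difference was 1.61 ± 0.34 (adjusted p = 8.03e-05), and 0.81 after rescaling (adjusted p = 0.0357). The rescaled call was lost without F/F vehicle replicate 1 or 4 or W/W vehicle replicate 1, 2 or 4, with values of 0.49 to 0.83 and adjusted p of 0.052 to 0.212.

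With T0901317 Trib3 was 24.4, 25.4, 35.5 and 38.9 TPM in F/F, above the 8.94 to 13.6 TPM of W/W and the 7.99 to 13.1 TPM of W/F. F/F minus W/W was 1.37 ± 0.34 (adjusted p = 0.000797; 0.88 after rescaling, adjusted p = 0.0294) and F/F minus W/F was 1.40 ± 0.34 (adjusted p = 0.000711; 0.89 after rescaling, adjusted p = 0.0308). Each rescaled call was lost without any 1 of 4 libraries, among them F/F T0901317 replicates 3 and 4, with adjusted p of 0.0645 to 0.0952. Unlike Atf3, Trib3 in F/F showed no call between T0901317 and vehicle (0.16 ± 0.34, adjusted p = 0.743).

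Asns encodes asparagine synthetase, a classic target of ATF4 under amino acid shortage (ENSMUSG00000029752, GRCm38 chr6:7675169-7693254, minus strand). In F/F livers on chow it was 51.6, 67.3, 42.2 and 41.8 TPM, its highest group. In W/W livers on chow it was 2.60, 30.7, 7.46 and 1.58 TPM, and in W/F livers on chow 37.7, 11.8, 8.69 and 40.4 TPM. As deposited the F/F livers lay above all others on chow, but after rescaling their range of 33.8 to 68.2 overlapped W/F, with a highest value of 45.5, and W/W, with 35.5. F/F minus W/F on chow was 1.27 ± 0.51 (adjusted p = 0.0475), a call lost after rescaling (0.92, adjusted p = 0.199), with the replicate block (adjusted p = 0.0558), with a pseudocount of 0.1 TPM, no filter or only the libraries compared (adjusted p 0.0699 to 0.0932), or without any 1 of 6 of the 8 libraries (adjusted p 0.0646 to 0.187). F/F exceeded W/W by 2.85 ± 0.51 (adjusted p = 5.82e-05; 2.5 after rescaling, adjusted p = 0.000598), a difference of 3.57 as deposited without W/W chow replicate 2.

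On the MASH diet with vehicle Asns was 1.96, 1.59, 0.847 and 3.09 TPM in W/W. It was 10.4, 19.7, 11.6 and 13.9 TPM in W/F livers and 22.3, 15.8, 17.4 and 19.8 TPM in F/F livers. Every mutant liver was above every W/W liver. W/F exceeded W/W by 2.40 ± 0.51 (adjusted p = 0.00014; 1.87 after rescaling, adjusted p = 0.00391). F/F exceeded W/W by 2.83 ± 0.51 (adjusted p = 1.09e-05; 2.11 after rescaling, adjusted p = 0.0011). In F/F, Asns was lower on the MASH diet than on chow (log2 change -1.37 ± 0.51, adjusted p = 0.0241; -1.69 after rescaling, adjusted p = 0.0101), opposite in direction to Atf3 and Ddit3 in the same livers. The deposited call was lost without F/F chow replicate 2 or F/F vehicle replicate 2 (adjusted p = 0.0692 and 0.054).

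With T0901317 the range of Asns was 1.30 to 1.92 TPM for W/W, 2.99 to 12.9 TPM for W/F and 5.10 to 14.98 TPM for F/F. F/F minus W/W was 1.83 ± 0.51 (adjusted p = 0.00275; 1.43 after rescaling, adjusted p = 0.0284), the rescaled call being lost without F/F T0901317 replicate 3 or 4 or W/W T0901317 replicate 1 (adjusted p 0.0516 to 0.101). W/F minus W/W was 1.56 ± 0.51 (adjusted p = 0.0489; 1.63 after rescaling, adjusted p = 0.0392), a call lost in both scalings without 7 of the 8 libraries, all but W/F T0901317 replicate 2 (adjusted p 0.0619 to 0.164). The deposited call was also lost with the replicate block (adjusted p = 0.0588) and with no filter on low values (adjusted p = 0.102). No T0901317 change in Asns was called in any genotype.

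Atf4, the factor upstream of these genes, is regulated mainly by translation (ENSMUSG00000042406, GRCm38 chr15:80255184-80257541, plus strand). Its mRNA was 126, 116, 120 and 113 TPM in W/W livers on vehicle. In the W/F livers it was 176, 183, 172 and 196 TPM, and in the F/F livers 245, 184, 206 and 246 TPM. As deposited the W/W livers lay below all mutant livers. The deposited differences, 0.61 ± 0.12 for W/F (adjusted p = 4.22e-05) and 0.88 ± 0.12 for F/F (adjusted p = 9e-08), became -0.05 and 0.01 after rescaling (adjusted p = 0.762 and 0.93), with the direction in W/F turned. The median gene moved by 0.52 in W/F and 0.70 in F/F as deposited in the same comparisons. Between the MASH diet and chow in F/F, Atf4 rose in both scalings, by 0.68 ± 0.12 (adjusted p = 1.65e-05) and by 0.33 (adjusted p = 0.0326), the rescaled call being lost without F/F chow replicate 1 or 3 or F/F vehicle replicate 1 or 4 (adjusted p 0.0897 to 0.117).

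**Figure D2:**
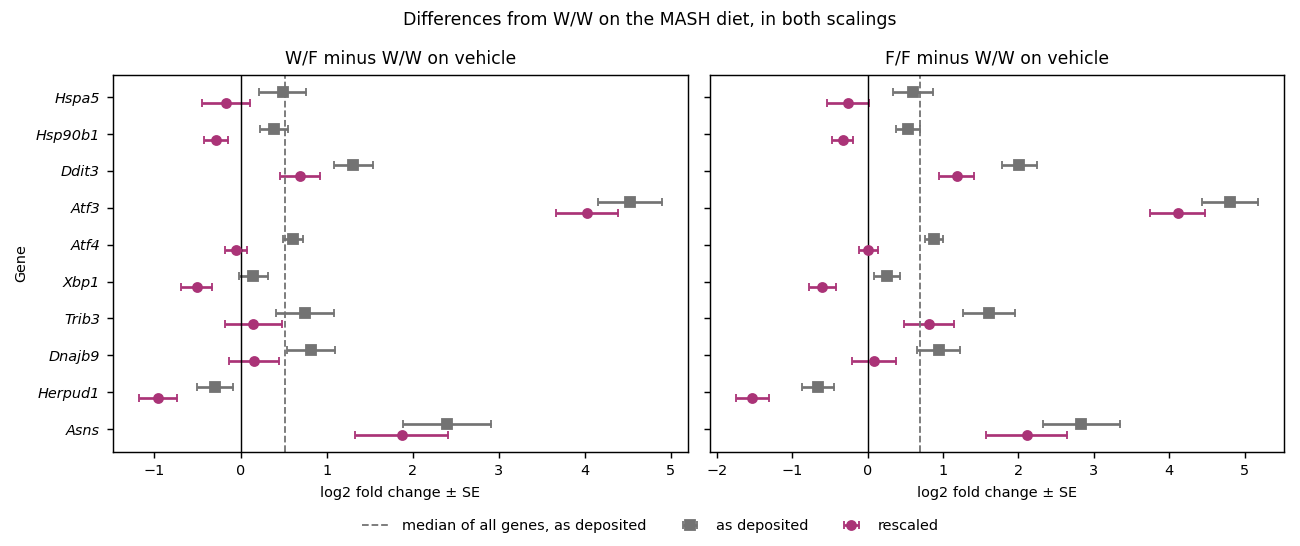
Fitted log2 fold change ± SE of each gene in W/F livers and in F/F livers, each against W/W, on the MASH diet with vehicle, as deposited (grey squares) and rescaled (purple circles), with the median of all genes as deposited as a dashed line. Atf3, Ddit3 and Asns lie right of 0 in both scalings and both panels, while Hspa5, Hsp90b1, Xbp1 and Atf4 lie at or below 0.01 once rescaled.

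Among the ER-resident genes, 3 promoters hold exact matches to ER stress elements, the sites through which ATF6 and XBP1 are known to act. They are shown because these genes did not move as 1 group in the livers. Sequences are from RefSeq (GRCm38.p6), in which all 10 genes were matched, with 250 bases before and 50 after each start, and both strands were searched. The ER stress element ERSE (CCAAT, any 9 bases, CCACG) was found in 39 of 32851 promoters (0.119%), among them those of Hspa5 and Hsp90b1, and ERSE-II (ATTGG, any 1 base, CCACG) in 12 (0.037%), among them that of Herpud1. The Hspa5 stretch is at chr2:34772020-34772048 (plus strand), that of Hsp90b1 at chr10:86705528-86705661 (minus strand) and that of Herpud1 at chr8:94386337-94386427 (plus strand). The Hspa5 stretch lies before the RefSeq start but inside the gene as annotated in GENCODE M21, which begins at 34771970. It is thus promoter sequence by the RefSeq start only. Capitals mark the paired motif letters (for Herpud1 also the base between them), and the Hsp90b1 stretch holds an ERSE on each strand.
Hspa5: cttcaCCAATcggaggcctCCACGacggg
Hsp90b1: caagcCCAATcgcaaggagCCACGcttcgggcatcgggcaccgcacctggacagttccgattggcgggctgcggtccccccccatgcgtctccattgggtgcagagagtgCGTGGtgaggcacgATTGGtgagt
Herpud1: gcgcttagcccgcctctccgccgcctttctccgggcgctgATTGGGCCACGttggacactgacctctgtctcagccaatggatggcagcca
No exact match was found in the windows of the 10 genes to the UPRE (TGACGTGG, in 222 promoters, 0.676%), the C/EBP-ATF element (TGATGNAAT, in 317, 0.965%) or the cyclic AMP response element (TGACGTCA, in 588, 1.79%). A match is a description of letters in a window, not evidence of binding.

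Hspa5 encodes BiP, the main ER chaperone of the HSP70 family (ENSMUSG00000026864, GRCm38 chr2:34771970-34777547, plus strand). It was 308, 442, 656 and 315 TPM in W/W livers on vehicle. W/F livers had 559, 533, 718 and 514 TPM and F/F livers 549, 587, 655 and 710 TPM. W/W livers overlapped both mutant groups. F/F minus W/W was 0.60 ± 0.27 as deposited (adjusted p = 0.0469) and turned to -0.26 after rescaling (adjusted p = 0.431). The deposited call was lost without any 1 of 6 of the 8 libraries, all but F/F vehicle replicate 1 and W/W vehicle replicate 3 (adjusted p 0.0555 to 0.154), and with no filter (adjusted p = 0.0795).

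Hspa5 was most spread on chow, at 355 to 816 TPM for W/W and 395 to 1089 TPM for W/F, against 369 to 629 TPM for F/F. With T0901317 its range was 306 to 386 TPM for W/W, 301 to 444 TPM for W/F and 387 to 523 TPM for F/F. The W/F fall against vehicle of -0.68 ± 0.27 (adjusted p = 0.0306) was -0.07 after rescaling (adjusted p = 0.855), and the deposited call was lost without W/F T0901317 replicate 1 or 2 or W/F vehicle replicate 3 (adjusted p 0.061 to 0.0941) and with no filter (adjusted p = 0.0602).

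Hsp90b1 encodes GRP94, the ER member of the HSP90 family (ENSMUSG00000020048, GRCm38 chr10:86690209-86705509, minus strand), and 13.3% of its 25-base stretches occur in other annotated genes. Of its exon bases, 15.7% overlap other annotated genes, 1810014B01Rik on the opposite strand and Gm15344 and Gm25745 on the same strand. Hsp90b1 was 331, 422, 462 and 524 TPM in W/W livers on vehicle, and 550, 630, 673 and 644 TPM in F/F. The groups did not overlap as deposited, where F/F was higher by 0.54 ± 0.16 (adjusted p = 0.00255), but after rescaling F/F was lower, with a difference of -0.33 (adjusted p = 0.0457). Hsp90b1 was thus called in opposite directions by the 2 scalings. The rescaled call was not checked by leaving out single libraries.

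In W/W, Hsp90b1 was lower on the MASH diet than on chow, where it was 494 to 858 TPM, by -0.64 ± 0.16 as deposited (adjusted p = 0.00591) and -0.51 after rescaling (adjusted p = 0.0129). The rescaled call was lost without W/W chow replicate 2 or W/W vehicle replicate 1 (adjusted p = 0.0826 and 0.0564), and the deposited call with only the libraries compared in the fit (adjusted p = 0.108). It was the only 1 of the 10 genes called for diet in W/W in either scaling, when 12.9% of genes were called as deposited and 15.4% after rescaling.

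Dnajb9 encodes ERdj4, a BiP cochaperone induced by spliced XBP1 (ENSMUSG00000014905, GRCm38 chr12:44205559-44210326, minus strand), and 13.0% of its 25-base stretches occur in 1 other annotated gene. It was 39.1 to 135 TPM in W/W livers on vehicle, against 116 to 159 TPM for W/F and 127 to 173 TPM for F/F. The W/W range overlapped both. The F/F difference of 0.94 ± 0.28 (adjusted p = 0.00326) was 0.08 after rescaling (adjusted p = 0.84). No difference in Dnajb9 was called after rescaling in any of the 15 comparisons of 2 groups or the 4 differences of responses.

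Herpud1 encodes a membrane component of ER-associated degradation that is strongly induced by ER stress (ENSMUSG00000031770, GRCm38 chr8:94386438-94395377, plus strand). It went the other way from Ddit3 and Atf3. In F/F livers on chow it was 257, 146, 172 and 170 TPM, and in W/W livers on chow 449, 389, 411 and 216 TPM. As deposited the groups overlapped through 1 liver of each. The difference was -0.95 ± 0.21 (adjusted p = 0.000712; -1.34 after rescaling, adjusted p = 3.22e-05), and F/F minus W/F on chow was -1.03 ± 0.21 (adjusted p = 0.000352; -1.39 after rescaling).

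On vehicle Herpud1 was 317, 384, 469 and 355 TPM in W/W livers. It was 375, 284, 335 and 248 TPM in W/F livers, with 324, 166, 196 and 302 TPM in F/F livers. F/F was lower than W/W (log2 difference -0.66 ± 0.21, adjusted p = 0.00622), and the rescaled difference was -1.53 (adjusted p = 7.31e-07). The F/F calls on chow and on vehicle held without any 1 library in both scalings, at -1.19 to -0.83 and -0.81 to -0.49 as deposited. In W/F the difference of -0.30 ± 0.21 was not called as deposited (adjusted p = 0.221) and was -0.96 after rescaling (adjusted p = 0.00057).

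With T0901317 Herpud1 fell in W/W to 218, 257, 237 and 248 TPM, below every W/W liver on vehicle. The change was -0.65 ± 0.21 (adjusted p = 0.0462; -0.72 after rescaling, adjusted p = 0.0284). The deposited call was lost without any W/W T0901317 replicate or without W/W vehicle replicate 2, 3 or 4 (adjusted p 0.065 to 0.157), and the rescaled call without W/W T0901317 replicate 1, 2 or 3 or W/W vehicle replicate 3 (adjusted p 0.052 to 0.104). With no filter the deposited call was lost too (adjusted p = 0.094). In W/F it was 344, 290, 394 and 394 TPM with T0901317, a change of 0.20 ± 0.21 as deposited (adjusted p = 0.42) and 0.81 after rescaling (adjusted p = 0.00334). In F/F it was 274, 281, 337 and 245 TPM, a change of 0.25 ± 0.21 (adjusted p = 0.373; 0.52 after rescaling, adjusted p = 0.118).

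The Herpud1 response to T0901317 in W/F livers differed from that in W/W livers by 0.85 ± 0.30 (adjusted p = 0.0168; 1.53 after rescaling, adjusted p = 0.000238). It differed by 0.90 ± 0.30 in F/F (adjusted p = 0.0248; 1.24 after rescaling, adjusted p = 0.0064), the deposited F/F call being lost without F/F T0901317 replicate 3, F/F vehicle replicate 2 or 3 or W/W vehicle replicate 3 (adjusted p 0.0542 to 0.0712).

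Xbp1, the substrate of IRE1 (ENSMUSG00000020484, GRCm38 chr11:5520659-5525893, plus strand), had a range on vehicle of 158 to 221 TPM for W/W, 185 to 206 TPM for W/F and 194 to 267 TPM for F/F. As deposited these ranges overlapped. F/F minus W/W was 0.26 ± 0.17 as deposited (adjusted p = 0.153) and turned to -0.60 after rescaling (adjusted p = 0.00456). The rescaled call was not checked by leaving out single libraries. With T0901317 Xbp1 was 144, 106, 158 and 97.6 TPM in W/W, all below the W/W livers on vehicle. That change was -0.54 ± 0.17 (adjusted p = 0.0326; -0.61 after rescaling, adjusted p = 0.0205), and was lost without W/W T0901317 replicate 2 or 4 or W/W vehicle replicate 3 in both scalings and without W/W vehicle replicate 2 as deposited (adjusted p 0.0529 to 0.146). W/F livers on T0901317 had 144, 170, 236 and 198 TPM and exceeded W/W by 0.57 ± 0.17 (adjusted p = 0.0239; 0.58 after rescaling, adjusted p = 0.0267), a call lost in both scalings without W/F T0901317 replicate 3 or 4 or W/W T0901317 replicate 2 or 4 (adjusted p 0.0594 to 0.121). With only the libraries compared in the fit, neither deposited Xbp1 call held (adjusted p = 0.108 for T0901317 in W/W and 0.15 for W/F minus W/W), and the first was also lost with no filter (adjusted p = 0.067). The replicate block kept the W/F minus W/W call (adjusted p = 0.015).

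**Figure D3:**
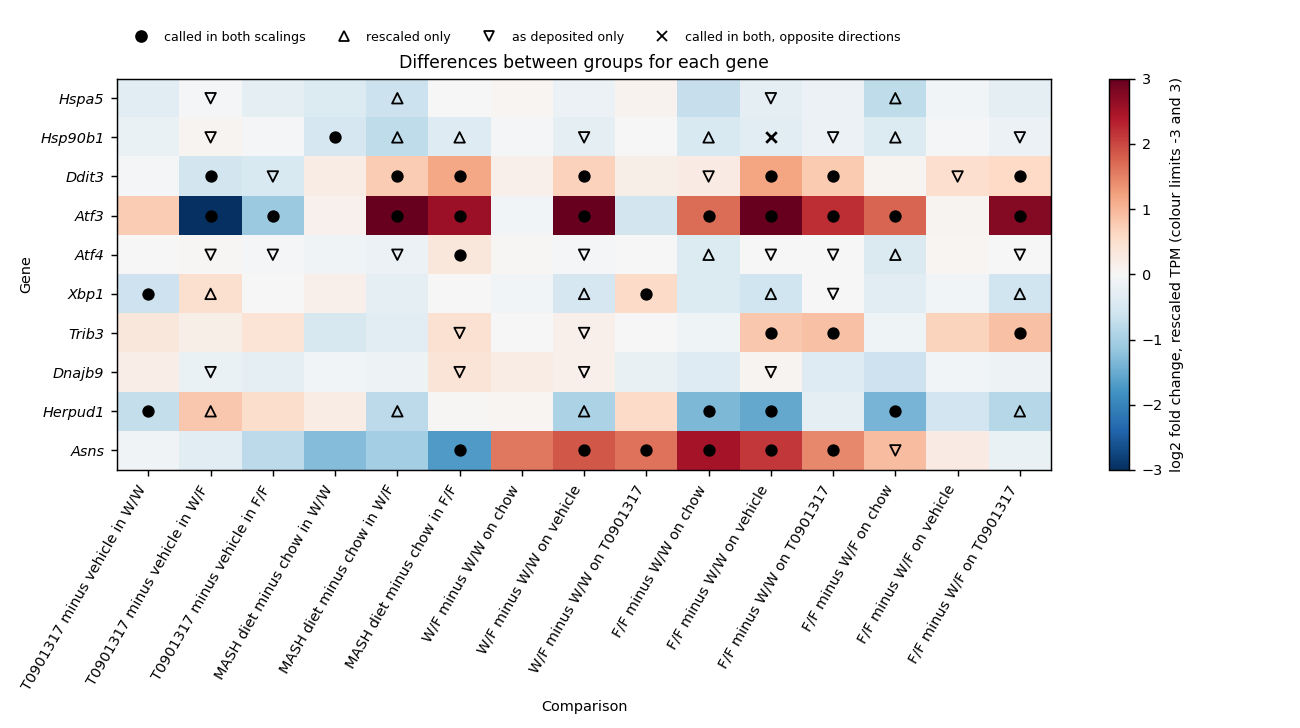
Rescaled log2 fold changes (colour, limits -3 and 3) of the 10 genes (rows) in the 15 comparisons of 2 groups (columns), with marks for calls in both scalings, in 1 scaling only, or in both with opposite directions. The strongest colours are in the Atf3 and Asns rows, the Herpud1 row is blue where F/F is compared with W/W on chow and vehicle, and the only cross is Hsp90b1 in F/F minus W/W on vehicle.

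T0901317 against vehicle called 2 of the 10 genes in W/W in each scaling, Xbp1 and Herpud1, both lower (backgrounds 10.8% and 13.5%). In W/F it called 6 as deposited, all lower (background 65.9%), and 4 after rescaling, Atf3 and Ddit3 lower and Xbp1 and Herpud1 higher (background 50.8%, with 23.6% higher and 27.1% lower). In F/F it called 3 as deposited, all lower (background 35.1%), and Atf3 alone after rescaling (background 16.3%, with 8.32% higher and 7.98% lower). The response differed from that of W/W for 5 genes in W/F as deposited and 3 after rescaling (backgrounds 58.5% and 43.9%), and for 2 in F/F in each scaling (backgrounds 30.4% and 17.4%).

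The MASH diet against chow called 3 genes in W/F as deposited and 5 after rescaling (backgrounds 61.0% and 54.9%), of which Atf3 and Ddit3 were higher in both. In F/F it called 6 and 5 (backgrounds 55.8% and 47.0%), with Atf3, Ddit3 and Atf4 higher and Asns lower in both scalings. The diet response differed from that of W/W for 3 genes in W/F as deposited and 2 after rescaling (backgrounds 54.6% and 40.1%), and for 6 and 2 in F/F (backgrounds 46.0% and 26.8%). Atf3 was called in both scalings in each. Ddit3 was called in both for F/F, at 1.41 ± 0.33 (adjusted p = 0.00112) and 0.94 after rescaling (adjusted p = 0.0321), the rescaled call being lost without any 1 of 8 of the 16 libraries (adjusted p 0.0502 to 0.0948).

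The other genes of these pathways were examined in 7 lists from which the 10 genes were left out. In F/F minus W/W on vehicle, the shares over all genes to read each list against are 31.0% higher and 28.1% lower after rescaling, and 76.5% called as deposited. Among the 23 targets of ATF4 and CHOP, 11 were higher and 3 lower in F/F than in W/W on vehicle after rescaling, with a median of 0.39 against 0.03 over all genes. As deposited 21 were higher and 1 lower, with a median of 1.08 against 0.70. The rescaled sum of the list overlapped, at 956 to 1309 in W/W and 932 to 1156 in F/F. As deposited the sum was 792 to 1049 TPM in W/W and 1377 to 1697 TPM in F/F. The genes named next were all higher, and none of the lower genes is named. Tnfrsf10b, which encodes the death receptor DR5, was 0.327 ± 0.157 TPM (SD, n = 4) in W/W and 4.28 ± 0.600 TPM in F/F, a rescaled log2 difference of 1.48. Bcl2l11, which encodes the death protein BIM, was 1.58 ± 0.384 and 7.84 ± 1.52 TPM (rescaled 1.11). Slc3a2, the heavy chain of amino acid transporters, was 20.1 ± 2.56 and 75.7 ± 4.72 TPM (rescaled 1.03), and Slc7a1, a cationic amino acid transporter, 0.157 ± 0.102 and 1.67 ± 0.277 TPM (rescaled 0.85).

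In W/F minus W/W on vehicle, 8 of these 23 targets were higher and 2 lower after rescaling (median 0.28), beside 27.6% higher and 25.5% lower over all genes. In F/F minus W/W on chow 6 were higher and 2 lower (median 0.22), beside 15.9% and 14.0%. On chow the named genes were Tnfrsf10b, Slc7a11, Nupr1 and Ddit4, with rescaled differences of 1.35, 1.40, 1.49 and 0.88. After rescaling, T0901317 in W/F lowered 10 and raised 3 of the 23 (median -0.23), beside 27.1% lower and 23.6% higher over all genes. In F/F it lowered 6 and raised none (median -0.04), beside 7.98% and 8.32%.

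Enzymes of amino acid synthesis and aminoacyl-tRNA synthetases held genes that changed in each direction. Of 20, 9 were higher and 7 lower in F/F than in W/W on vehicle after rescaling, beside 31.0% and 28.1% of all genes, with a median of -0.07. As deposited 13 were higher and 3 lower, with a median of 0.77. The rescaled sum of the list was 1600 to 1770 in W/W and 901 to 954 in F/F on vehicle. The summed TPM as deposited overlapped, at 1154 to 1419 in W/W and 1284 to 1362 in F/F. The genes named below were all higher, and none of the lower genes is named. Phgdh, the entry enzyme of serine synthesis, was 0.404 ± 0.138 TPM (SD, n = 4) in W/W and 6.25 ± 0.717 TPM in F/F (rescaled 1.83). Mthfd2, a mitochondrial folate enzyme, was 0.582 ± 0.232 and 8.90 ± 1.18 TPM (rescaled 2.06), and Aldh18a1, which starts proline synthesis, 0.599 ± 0.0972 and 6.65 ± 1.46 TPM (rescaled 1.65). The glycyl-tRNA synthetase Gars was 30.1 ± 4.01 and 82.1 ± 7.68 TPM (rescaled 0.57). On chow Phgdh (1.03), Psat1 (1.64) and Aldh18a1 (0.91) were also higher in F/F after rescaling, and 5 of 20 were higher and 3 lower (all genes 15.9% and 14.0%). In W/F minus W/W on vehicle 8 were higher and 7 lower (all genes 27.6% and 25.5%), and T0901317 in W/F raised 5 and lowered 9 (all genes 23.6% and 27.1%).

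Of 18 ER chaperones and folding enzymes, 3 were higher and 5 lower in F/F than in W/W on vehicle after rescaling (median -0.27; 13 higher, none lower and a median of 0.60 as deposited). The lower share was that of all genes, 28.1%, and 31.0% of all genes were higher. Dnajc10, an ER disulfide reductase, was 9.32 ± 1.57 TPM (SD, n = 4) in W/W and 59.6 ± 8.22 TPM in F/F (rescaled 1.73). Named genes had to be called in the same direction in both scalings. No gene of this list was lower as deposited, so none of the 5 lower genes could be named. Of 19 genes of ER-associated degradation and translocation, 1 was higher and 6 lower (median -0.10; 14 higher, 1 lower and a median of 0.76 as deposited). Edem2, which acts in the trimming of misfolded glycoproteins, was the higher gene (rescaled 0.67), and Derl2, a channel component, was lower in both scalings (-0.21 as deposited and -1.05 rescaled). In W/F minus W/W on vehicle the chaperone list had 2 higher and 4 lower and the degradation list 1 higher and 6 lower, beside 27.6% and 25.5% of all genes.

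Of 12 sensors and upstream factors, 4 were higher and 2 lower in F/F than in W/W on vehicle after rescaling, beside 31.0% and 28.1% of all genes (all 12 higher as deposited, beside 76.5% called). Eif2ak3, which encodes PERK, was 4.18 ± 1.76 TPM (SD, n = 4) in W/W, 17.3 ± 5.06 TPM in W/F livers and 15.5 ± 2.60 TPM in F/F livers on vehicle. It differed from W/W by 1.27 in W/F and 0.96 in F/F after rescaling, and T0901317 lowered it in W/F to 3.65 ± 0.521 TPM (rescaled -1.41). Of 12 cytosolic heat shock genes, 1 was higher and 5 lower in F/F than in W/W on vehicle after rescaling (8 higher and none lower as deposited).

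Immediate early genes respond to many stimuli. Of 13, 9 were higher and 2 lower in F/F than in W/W on vehicle after rescaling (median 1.51), beside 31.0% and 28.1% of all genes. In W/F 9 were higher and 1 lower (median 1.56), beside 27.6% and 25.5%, and in F/F on chow 6 were higher and none lower (median 0.86), beside 15.9% and 14.0%. In W/W livers Atf3 was not called for T0901317 or diet. There T0901317 lowered 4 and raised 1 (13.5% of all genes called). On the diet with vehicle 4 were higher and none lower than on chow (15.4%). Klf6 was 4.93 ± 2.05 TPM (SD, n = 4) in W/W and 63.7 ± 9.74 TPM in F/F on vehicle, and Ier3 1.64 ± 0.674 and 54.6 ± 9.23 TPM. T0901317 lowered 9 of the 13 in W/F and 2 in F/F after rescaling and raised none, beside 27.1% and 7.98% of all genes lower. Of the macrophage markers, 9 of 12 were higher and 3 lower in F/F than in W/W on vehicle in both scalings. Neutrophil markers (5 of 5 tested) and cholangiocyte markers (6 of 6) were also higher in both scalings, and hepatocyte markers (10 of 10) were lower after rescaling, 6 of them as deposited. Of 9 stellate cell and fibroblast markers, 9 were higher as deposited and 7 higher and 1 lower after rescaling. Of 7 plasma cell markers tested, 7 and 5 were higher, of 6 B and T cell markers 3 higher, then 2 higher and 1 lower, and of 6 endothelial markers 2 higher and 2 lower, then 1 higher and 4 lower. The summed TPM was 71.7 to 74.1 in W/W and 3012 to 3699 in F/F for cholangiocyte markers, and 3.30 to 7.22 and 142 to 426 for neutrophil markers, with no marker of these lists at 0 in all 4 livers of either group. The part of these cells in the results was not tested.

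**Figure D4:**
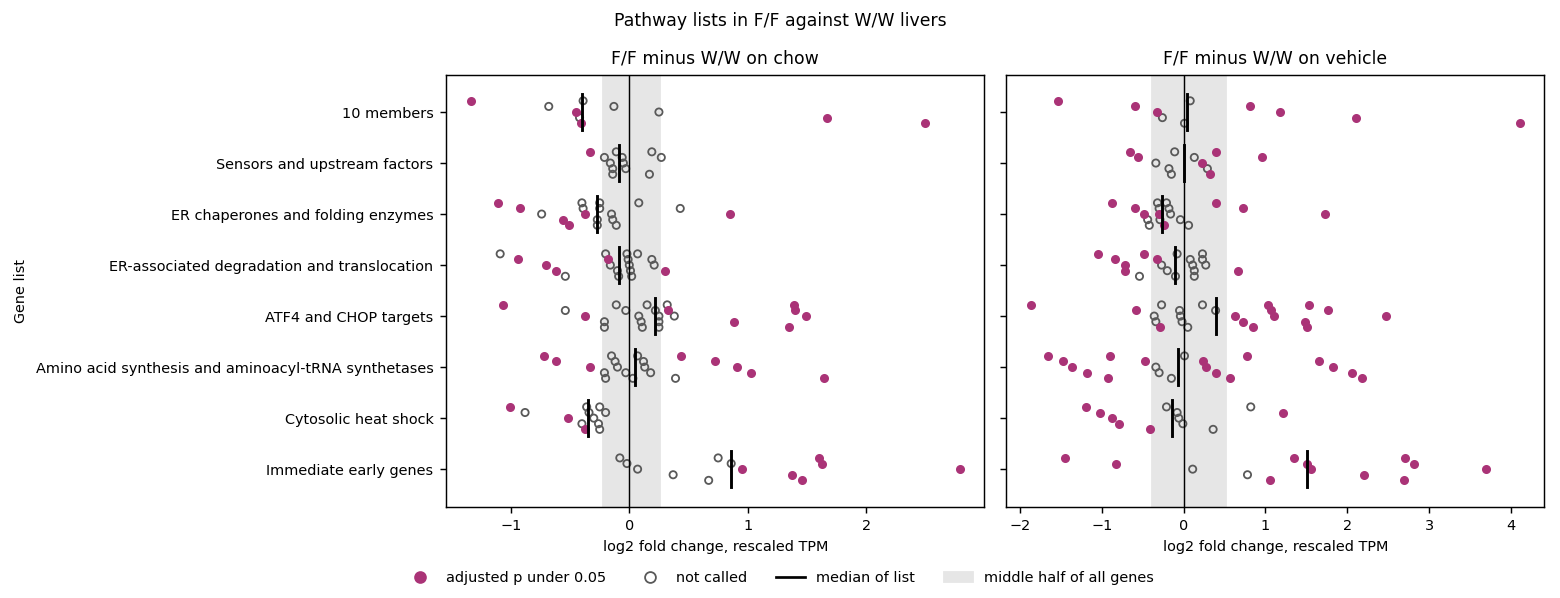
Rescaled log2 fold change of each gene (points, filled where the adjusted p is under 0.05) in the 10 genes and in 7 pathway lists, for F/F minus W/W on chow and on vehicle, with each list's median (bar) and the 25th to 75th percentile of all genes (grey). On vehicle the immediate early genes (median 1.51) and the targets of ATF4 and CHOP (median 0.39) have medians right of 0 and the ER chaperones (median -0.27) left of it, each list holds genes on both sides of 0, and the medians of the targets and the chaperones lie within the grey band.

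Across the 36 libraries the 10 genes did not form 1 pattern. These correlations of rescaled log2(TPM + 1) are descriptions over livers that share groups. Hspa5 and Hsp90b1 had a Pearson r of 0.78 and Hspa5 and Dnajb9 of 0.71, and Ddit3 and Atf3 had 0.80. Hsp90b1 and Atf3 had -0.62, Herpud1 and Atf3 -0.70, and Asns had no r above 0.31 with any other of the 10. Among 9225 genes with a mean of at least 5 TPM, the genes most like Hspa5 were Hyou1 (0.97), Creld2 (0.94) and Manf (0.93), all ER stress genes, and those most like Hsp90b1 were Pdia4 (0.93), Dnajc3 (0.92) and Eprs (0.91). Those most like Atf3 were Sdcbp, Lat2 and Ptafr, each at 0.98, none of them in a pathway or cell marker list used here. For Ddit3 they were Nck1 and Scamp2 (both 0.88) and Akt1 (0.86), for Herpud1 N4bp2l1, Eva1a and Dgat2 (each 0.88), and for Asns Enho (0.80), Myh10 (0.79) and Hnrnph2 (0.78). For Dnajb9 they were Alg2 (0.84), Tmem248 (0.83) and Nus1 (0.80), for Xbp1 Emg1, Thpo and Gltpd2 (each 0.77), for Atf4 Cdk2ap2 (0.70), Sec11a (0.64) and Eif2s2 (0.62), and for Trib3 Slc8b1 and Thra (both 0.63) and Casp6 (0.56).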

How the data were processed

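TPM values of 49315 genes in 36 liver libraries were deposited by the authors in 1 table, per the file headers; all columns sum to the same total, and every sample column was used. Per the submitters' processing notes, Trimmomatic 0.36, STAR 2.5.2b, featureCounts and Subread 1.5.2 were used with GRCm38 (mm10); the annotation and strand setting are not given in the sources used here. GENCODE M21 gave exon lengths and coordinates. Depth was recovered from genes of 0.02 to 0.4 TPM: 92.9% to 95.0% of genes under 20 reads lay within 0.1 of a whole read, where chance gives 20.0%.

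Groups came from the labels. log2(TPM + 1) of 16638 genes (at least 1 TPM in at least 4 samples) entered limma 3.58.1 (R 4.3.3) with 9 group means, a mean-dependent prior variance and 19 two-sided contrasts, adjusted by Benjamini-Hochberg over all genes with a threshold of 0.05. The script was tested on simulated data in which the typical gene did not move, so that test does not bear on the choice of scaling. Rescaled TPM was divided by the median ratio to the geometric mean over the 14786 genes above 0 in every library. Each scaling rests on an assumption, a constant typical gene or a constant total, that these data do not test. Alternatives were another pseudocount, filters, a replicate block, fits of only the libraries compared, and leaving out each library. Named genes of a list were up to 4 with the smallest adjusted p among those called in the same direction in both scalings; genes alike were the 3 with the highest Pearson r. The 10 genes and the lists were chosen with earlier results of these data known. Of the list of ER-associated degradation and translocation, 19 of 20 symbols were found.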

Additional observations from a re-analysis of the deposited data

Results flagged for a closer look

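In 5 of 90 combinations of gene and group, 1 liver lay far from the other 3 by Dixon's criterion, which chance meets in about 1 in 20 groups. These were Atf3 in W/F T0901317 replicate 2 (9.25 TPM), Xbp1 in W/F vehicle replicate 1 (185 TPM) and F/F vehicle replicate 2 (267 TPM), Trib3 in W/F vehicle replicate 1 (10.8 TPM) and Dnajb9 in W/W chow replicate 3 (151 TPM).

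The response to T0901317 differed between genotypes by a test of the difference itself (limma, TPM as deposited). For W/F against W/W the differences were Atf3 -5.01, Ddit3 -1.14, Dnajb9 -1.06, Atf4 -0.64 and Herpud1 0.85 on the log2 scale. For F/F they were Atf3 -2.13 and Herpud1 0.90. After rescaling, Atf3 and Herpud1 kept their call in both genotypes, and Ddit3, Dnajb9 and Atf4 lost it, at -0.50, -0.39 and 0.03 (adjusted p = 0.224, 0.468 and 0.90). The deposited Dnajb9 call was also lost without W/W vehicle replicate 4 (-0.77, adjusted p = 0.0748).

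The response to diet, which cannot be told apart from the cohort or the vehicle, differed from that of W/W in W/F for Atf3 by 4.58, Ddit3 by 1.13 and Atf4 by 0.55. In F/F it differed for Atf3 by 2.86, Ddit3 by 1.41, Trib3 by 1.38, Dnajb9 by 0.94, Atf4 by 0.90 and Hsp90b1 by 0.60. After rescaling, Atf3 kept its call in both genotypes and Ddit3 in F/F. The others were at 0.53 and -0.08 in W/F (Ddit3, Atf4) and 0.94, 0.47, 0.43 and 0.12 in F/F (Trib3, Dnajb9, Atf4, Hsp90b1), with adjusted p of 0.0764 to 0.754. Of the deposited F/F calls, those of Hsp90b1 and Trib3 were each lost without any 1 of 3 libraries (among them W/W vehicle replicate 1, at 0.48 and 1.01), and that of Dnajb9 without any 1 of 10 (0.65 to 1.00).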

How the results depend on the processing

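Scaling decided more than any other choice. Of 93 results for single genes called in either scaling, 41 were called in the same direction in both, and 24 of these kept the call in both scalings without any 1 library. The following turned direction after rescaling. For W/F minus W/W on vehicle these were Hsp90b1 (-0.28), Atf4 (-0.05) and Xbp1 (-0.51), for F/F minus W/W on vehicle Hspa5 (-0.26), Hsp90b1 (-0.33) and Xbp1 (-0.60), and for F/F minus W/W on T0901317 Hsp90b1 (-0.18), Atf4 (-0.02) and Xbp1 (-0.01). For F/F minus W/F on T0901317 they were Hsp90b1 (-0.18) and Atf4 (0.00, below 0 before rounding), for T0901317 in W/F Hsp90b1 (0.09), Atf4 (0.04) and Xbp1 (0.49), for the diet in W/F Atf4 (-0.18), and for the differences of responses between W/F and W/W Atf4 (0.03 for T0901317, -0.08 for diet). Rescaling with W/F T0901317 replicate 2 left out, chosen after seeing the data, gave for T0901317 in W/F Hspa5 0.02, Hsp90b1 0.13, Atf4 0.09 and Xbp1 0.58, for F/F minus W/F Hsp90b1 -0.22 and Atf4 -0.05, and for the difference of T0901317 responses Atf4 0.08. Leaving out libraries after rescaling was also chosen after seeing the data. It was run only for results called in the same direction in both scalings. Calls made only after rescaling, and rescaled calls opposite to the deposited call, were not checked in this way.

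Counts of the 10 genes called that moved by over 1.5 times after rescaling went to 1 for T0901317 in F/F, 5 for the diet in W/F, 4 for F/F minus W/W on T0901317, 5 and 0 for F/F minus W/F on chow and on vehicle, 3 for the T0901317 response of W/F and 2 for the diet response of F/F. With replicate 2 also left out they were 4 for W/F minus W/W on T0901317 and 3 for the T0901317 response of W/F. With no filter they were 0 for T0901317 in W/W and 1 for W/F minus W/W on T0901317. A pseudocount of 0.1 gave 0 for F/F minus W/F on vehicle. Only the libraries compared gave 1 and 6 for T0901317 in W/W and F/F, 0 for the diet in W/W and 2 for F/F minus W/F on vehicle. The replicate block gave 1 for W/F minus W/W on T0901317. The call it removed there was Asns. Correlations of same-numbered livers were -0.17 to 0.30 and were over 0.1 in at most 3 of the 4 pairs of a comparison (W/F minus W/W on T0901317), so the numbers were not taken to pair the livers. The block was run on TPM as deposited only. It removed 4 of the calls made as deposited and added none among the 93 results.

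Without 1 library each, the counts ranged from 0 to 2 for T0901317 in W/W, 1 to 3 for T0901317 in F/F, 1 to 2 for the diet in W/W, 0 to 1 for W/F minus W/W on chow and 0 to 3 on T0901317, 0 to 2 for F/F minus W/F on vehicle, 1 to 3 for the T0901317 response of F/F and 3 to 7 for the diet response of F/F. Directions near 0 turned for Xbp1 with T0901317 in W/F (-0.23 to 0.00), Hspa5 with the diet in W/F (-0.37 to 0.12), Hsp90b1 with the diet in F/F (-0.10 to 0.02), Hsp90b1 and Atf4 in F/F minus W/W on chow (-0.21 to 0.05, -0.10 to 0.07), Hsp90b1 in F/F minus W/F on chow (-0.19 to 0.07) and Xbp1 in F/F minus W/F on T0901317 (-0.17 to 0.07). The cause of these changes was not tested.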
